A study of Mus musculus with 10 samples.

Results

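The comparison described here sets secretory progenitors (Sec-Pro) against enterocyte progenitors (Ent-Pro) of the mouse intestinal crypt. It uses 6 of the 10 Affymetrix mouse 430A 2.0 arrays of the series, chosen by the group names in the labels: 2 of DBZ Sec-Pro, 2 of Rbpj Sec-Pro and 2 of Ent-Pro. DBZ Sec-Pro are crypts of C57BL/6 mice given dibenzazepine, an inhibitor of the protease that activates Notch. Rbpj Sec-Pro are crypts of C57BL/6 mice with a deletion of Rbpj, the protein through which active Notch binds DNA. Ent-Pro are crypts of C57BL/6 Atoh1-/- mice, which per the labels make no secretory cells. The labels give no Cre driver, deleted exons, dose, duration, age or sex for these 3 groups. All 6 samples are whole crypts freed in 5 mM EDTA over 50 min after the villi were scraped away. They are enriched by genotype or drug and were not sorted, so they still hold stem cells, dividing progenitors and whatever else sits in a crypt. The other 4 arrays, of sorted Lgr5+ stem cells (ISC) and of villus enterocytes of the Atoh1-/- mice (ENT), entered only the estimate of the spread and a few side values.

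Crypt progenitors choose between fates by lateral inhibition. A cell that shows Delta ligands activates Notch in its neighbours; Notch, through Rbpj, switches on Hes1, which represses Atoh1, and the neighbour becomes an absorptive progenitor. A cell that escapes Notch keeps Atoh1 and enters the secretory lineage of goblet, Paneth and enteroendocrine cells, which build a large endoplasmic reticulum (ER), glycosylate their cargo in the Golgi and store it in granules. Absorptive progenitors go on dividing for some rounds before they move onto the villus.

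Because the Ent-Pro mice lack Atoh1 and its descendants, the direction of goblet, Paneth and enteroendocrine markers was largely set by the design, and 118 measured marker genes of these cells and of tuft cells were kept apart. The weight here is on the other genes and on those that changed the same way in each Sec-Pro group. Every value is a log2 array value, and every difference is the mean of the DBZ and Rbpj Sec-Pro group means minus the Ent-Pro mean, in log2 units, with its standard error (SE) from limma. A gene is called where the Benjamini-Hochberg adjusted p over 12393 genes is 0.05 or less. Whether the 2 arrays of each group stand for different mice is not stated in the labels, and p-values therefore measure the spread between samples that may be technical repeats. In whole crypts, fewer cells of a type and less RNA per cell cannot be told apart.

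Array medians over the whole series lay between 6.83 and 6.98. Across genes the arrays of a group correlated at 0.993 in DBZ Sec-Pro, 0.982 in Rbpj Sec-Pro and 0.995 in Ent-Pro, and Sec-Pro arrays correlated with Ent-Pro arrays at 0.950 to 0.968. Genes are not independent replicates, and these figures only describe the arrays. Rbpj Sec-Pro replicate 1 stood apart from replicate 2: its leukocyte genes averaged 7.48, against 6.27 in replicate 2, and its tuft cell genes averaged 6.72, against 8.09. The hybridisation control bioB read 7.81 and 6.64 in DBZ Sec-Pro, 10.15 and 10.03 in Rbpj Sec-Pro, against 7.44 and 7.61 in Ent-Pro. The 3′ minus 5′ difference of the actin control probe sets, a measure of RNA integrity and labelling, was 0.583 and 1.01, 0.492 and 0.593, and 0.818 and 0.847 in the same order of groups. The labels name no batch, and the part of these control values in the results was not tested.

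Atoh1, Rbpj and the Notch target Hes1 were examined before other genes. Atoh1, the factor that starts the secretory lineage, read 11.80 and 11.85 in DBZ Sec-Pro and 10.40 and 10.78 in Rbpj Sec-Pro, against 5.75 and 5.78 in the Atoh1-/- Ent-Pro crypts. Rbpj read 8.26 and 8.31 in DBZ Sec-Pro and 6.74 and 6.62 in Rbpj Sec-Pro, against 8.16 and 8.07 in Ent-Pro, so it was low only in the 2 arrays of the deleted crypts. A second, dimmer Rbpj probe set gave a pooled difference of 0.05 (Sec-Pro minus Ent-Pro). That value includes the DBZ arrays, so it does not show whether this probe set was low in the deleted crypts. Hes1 read 7.70 and 6.72 in DBZ Sec-Pro and 8.05 and 8.68 in Rbpj Sec-Pro, against 9.79 and 9.502 in Ent-Pro, with no overlap. It fell by 1.86 (SE 0.28, adjusted p = 0.0029), and was lower with the drug than with the deletion (DBZ minus Rbpj -1.16, adjusted p = 0.045).

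The labelled cell types were checked against their markers. Of 34 goblet genes measured 30 were called higher in Sec-Pro, of 15 Paneth genes 13, of 45 enteroendocrine genes 34 and of 25 tuft cell genes 14, against a background of 9.27% of all genes called higher. The tuft cell list averaged 6.37 and 6.12 in Ent-Pro but 8.53 and 8.17 in ENT, above every Sec-Pro array. Because ENT is also Atoh1-/-, tuft cell genes do not set Sec-Pro apart from Atoh1-/- tissue in general. The tuft cell count was 6 with Ent-Pro replicate 1 left out and 4 with replicate 2 left out. Among the leading markers, the mucus protein Clca1, hardly above background in Ent-Pro, differed by 9.13 as measured, the mucus lectin Zg16 by 8.24, the Paneth pentraxin Mptx1 by 6.33, the Paneth and secretory lectin Reg4 by 5.38, the endocrine fate factor Neurog3 by 6.90, the substance P precursor Tac1 by 5.51, and the tuft cell genes Avil, an actin-binding protein, by 3.05 and Spib, an Ets factor, by 2.85. Ent-Pro did not stand above Sec-Pro in enterocyte genes: of 36 genes of digestion and uptake 7 were called higher in Sec-Pro and 1, Dgat1 of triglyceride synthesis, lower. Fabp1, the liver-type fatty acid binding protein, read 14.22 and 13.96 in DBZ Sec-Pro and 14.59 and 14.52 in Rbpj Sec-Pro, against 14.22 and 14.20 in Ent-Pro. Ent-Pro is thus named here by its genotype and origin.

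Over all genes, 1149 (9.27%) were higher in Sec-Pro and 1826 (14.7%) lower. The split depended on the scaling, with 1001 higher and 2504 lower after centring each array on its median and 1434 higher and 1206 lower after cyclic loess. The higher side held the larger changes: 465 genes were at least 2-fold higher and 220 at least 2-fold lower. In each Sec-Pro group on its own, 532 genes (4.29%) were called higher than Ent-Pro and 679 (5.48%) lower, and 25 were called in opposite directions. Both counts use the same 2 Ent-Pro arrays. Leaving out Ent-Pro replicate 1 gave pooled counts of 519 higher and 392 lower, with 269 higher and 147 lower in each group, and leaving out Ent-Pro replicate 2 gave 477 and 426, with 244 and 147 in each group. The genes lower in each group numbered 398 without DBZ Sec-Pro replicate 1, 334 without DBZ Sec-Pro replicate 2 and 393 without Rbpj Sec-Pro replicate 1. Outside the marker lists, 457 genes were higher and 679 lower in both Sec-Pro groups with no overlap between the 4 Sec-Pro and the 2 Ent-Pro arrays. Lack of overlap was common: over all 12393 genes, called or not, 1615 were higher and 3364 lower without overlap. All 679 genes called lower in each group met this rule, so it removed none of them. Of the 457 agreeing higher genes 277 differed at least 2-fold and 98 at least 4-fold, and of the 679 agreeing lower genes 172 and 15.

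The 15 largest agreeing increases outside the markers were varied in function. Selenom, a selenoprotein of the ER, led: it read 12.97 and 13.001 in DBZ Sec-Pro and 11.30 and 11.53 in Rbpj Sec-Pro, against 5.30 and 5.30 in Ent-Pro. It was 119-fold higher (log2 6.90, SE 0.14, adjusted p = 4.2e-08). Hepacam2, a membrane protein of the immunoglobulin superfamily, read 12.26 and 12.22 in DBZ Sec-Pro and 11.33 and 11.59 in Rbpj Sec-Pro, against 5.84 and 5.24 in Ent-Pro, a 79.4-fold difference. Tent5c, a poly(A) polymerase best known from plasma cells, where it stabilises messages of secreted proteins, read 11.09 and 11.36 in DBZ Sec-Pro and 9.70 and 10.22 in Rbpj Sec-Pro, against 5.504 and 5.69 in Ent-Pro, a 31.9-fold difference. For these 3 genes the lowest Sec-Pro array lay above the highest Ent-Pro array by more than 4 log2 units.

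Gfi1, a zinc-finger repressor that steers secretory cells to goblet and Paneth fates, read 9.40 and 9.92 in DBZ Sec-Pro and 8.14 and 8.22 in Rbpj Sec-Pro, against 4.64 and 4.54 in Ent-Pro. Both Ent-Pro arrays were within 1 log2 unit of TrpnX, a control for an absent RNA, which is called near the absent control here, so the difference is given as at least 19.1-fold (log2 as measured 4.33, adjusted p = 7.4e-07). Bhlha15, also called Mist1, scales the secretory apparatus of exocrine cells. It read 11.36 and 12.01 in DBZ Sec-Pro and 8.53 and 9.63 in Rbpj Sec-Pro, against 6.49 and 7.05 in Ent-Pro (12.3-fold, SE 0.32 on the log2 scale, adjusted p = 0.00015). All 4 Sec-Pro arrays were higher, those with the drug most of all. A dimmer Bhlha15 probe set differed by 0.33 and was not called.

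The other large increases fell between log2 3.66 and 4.40. They were Hpd, an enzyme of tyrosine breakdown (20.1-fold), the secreted protein Glipr1 (16.8-fold), Rgs2, which quenches G-protein signals (15.9-fold), Ramp1, a subunit of the receptor for the neuropeptide CGRP (15.8-fold), Lrrc26, an auxiliary subunit of BK potassium channels (14.6-fold), and Reep5, which shapes ER tubules (12.7-fold). Epb42, a protein of the membrane skeleton of red cells, was at least 6.76-fold higher, its Ent-Pro arrays being near the absent control. Ramp1 showed how alike the Sec-Pro groups could be, with 9.35 and 9.69 in DBZ Sec-Pro and 8.999 and 9.68 in Rbpj Sec-Pro, against 5.596 and 5.30 in Ent-Pro. Glipr1 was less even, at 10.34 and 9.63 in DBZ Sec-Pro and 10.38 and 8.35 in Rbpj Sec-Pro, against 5.95 and 5.25 in Ent-Pro. Acta1 of the actins (21.2-fold), Tuba1a of the tubulins (12.8-fold) and Serpina1b of the antitrypsin cluster (at least 11.7-fold) belong to families of near-identical sequence, so which member was measured is uncertain.

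**Figure D1:**
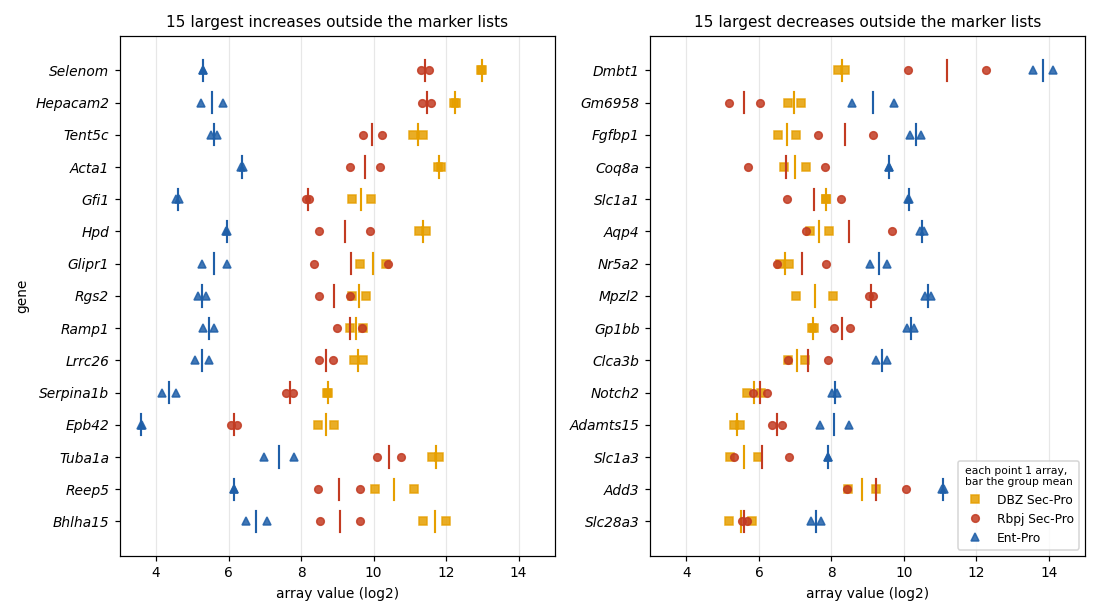
Array values (log2, horizontal axis) of the 15 largest increases (left panel) and 15 largest decreases (right panel) outside the marker lists, 1 point per array and 1 bar per group mean. For each gene all 4 Sec-Pro arrays (squares DBZ, circles Rbpj) lie on 1 side of both Ent-Pro arrays (triangles), as the choice of genes required; the gaps are widest for Selenom and Hepacam2.

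Genes that were lower in Sec-Pro changed less. Dmbt1, a secreted scavenger receptor of mucosal surfaces, read 8.37 and 8.18 in DBZ Sec-Pro and 10.12 and 12.25 in Rbpj Sec-Pro, against 13.56 and 14.11 in Ent-Pro, 17.2-fold lower (adjusted p = 0.00069). Its 4 Sec-Pro arrays spread over 4 log2 units, and those with the drug were lowest. Slc1a1, a glutamate transporter of epithelia and neurons, read 7.85 and 7.85 in DBZ Sec-Pro and 6.78 and 8.25 in Rbpj Sec-Pro, against 10.12 and 10.14 in Ent-Pro, 5.45-fold lower. Its relative Slc1a3 was 4.21-fold lower, and the nucleoside carrier Slc28a3 4.09-fold lower. These 3 of the 15 largest decreases are solute carriers, and the share of such carriers among all measured genes was not counted.

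Nr5a2, a nuclear receptor that keeps crypt cells dividing, read 6.83 and 6.58 in DBZ Sec-Pro and 6.50 and 7.85 in Rbpj Sec-Pro, against 9.06 and 9.54 in Ent-Pro, 5.13-fold lower. Secreted and matrix-modifying proteins in the same range were Fgfbp1, a carrier of fibroblast growth factors (6.74-fold lower), and the metalloproteinase Adamts15 (4.38-fold). Coq8a of coenzyme Q synthesis (6.57-fold), the adhesion protein Mpzl2 (5.13-fold), Gp1bb, known as a platelet receptor subunit (4.93-fold), Clca3b of the calcium-activated chloride channel regulators (4.54-fold), the membrane skeleton protein Add3 (4.13-fold) and the predicted gene Gm6958 (7.28-fold) completed the list with Aqp4 and Notch2, described below. Add3, Slc1a3 and Aqp4 were no longer called without either one of the Ent-Pro arrays, nor Gm6958 without Ent-Pro replicate 2. On their dimmest probe sets Nr5a2 (-0.24), Coq8a (-0.58), Gp1bb (-0.57) and Slc28a3 (-0.54) were not called.

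The secretory route was followed from the ER inwards. Proteins enter the ER through the translocon, and 14 of 21 genes of translocation and signal peptide cleavage were higher in Sec-Pro, with 1 lower (Tram2, -0.72). The changes were small, with a median of 0.54, against -0.09 over all genes. Sec62, a translocon subunit (0.99), Sec11c, the catalytic subunit of signal peptidase (0.89), and Tram1, which helps nascent chains into the channel (0.76), had the larger differences among those named; all 3 lost the call when the 4 Sec-Pro arrays were fitted as 1 group, and Sec62 also on its dimmest probe set (0.37). Only 1 of the 21 was called higher in each Sec-Pro group, near the share of 4.29% over all genes. It was the signal recognition particle subunit Srp19 (0.54), at 11.10 and 11.48 in DBZ Sec-Pro and 11.32 and 11.19 in Rbpj Sec-Pro, against 10.60 and 10.85 in Ent-Pro. Its adjusted p in limma was 0.047 in each group, and it was not called with only the 6 arrays compared. Of 29 genes that build, attach and trim N-glycans, 11 were higher and 2 lower (Man1b1 -0.65, Stt3b -0.43), with a median of 0.27. They included Gmppb (0.87) and Gmppa (0.80), which make and sense GDP-mannose, and the oligosaccharyltransferase subunits Krtcap2 (0.69) and Tusc3 (0.67). Gmppa and Tusc3 were the 2 of the 29 called higher in each Sec-Pro group, and Gmppb and Krtcap2 were not called in Rbpj Sec-Pro. Both counts leaned on the Ent-Pro arrays: without replicate 1 or 2 of Ent-Pro the higher translocation genes numbered 2 and 5 and the N-glycan genes 0 and 3, and without DBZ Sec-Pro replicate 2 the N-glycan genes numbered 7.

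Of 28 ER genes for chaperones and disulfide enzymes 19 were higher and 0 lower, 9 of them in each Sec-Pro group, with a median of 0.49. Pdia5, a protein disulfide isomerase, read 12.05 and 12.11 in DBZ Sec-Pro and 10.92 and 10.90 in Rbpj Sec-Pro, against 8.67 and 8.81 in Ent-Pro, a 6.76-fold difference (SE 0.15 on the log2 scale, adjusted p = 9.1e-06). Fkbp11, a prolyl isomerase of secretory cells, read 9.64 and 10.49 in DBZ Sec-Pro and 8.84 and 8.43 in Rbpj Sec-Pro, against 6.42 and 6.83 in Ent-Pro (6.6-fold). Dnajc10, a reductase that works with BiP, read 11.33 and 11.65 in DBZ Sec-Pro and 11.40 and 10.92 in Rbpj Sec-Pro, against 9.09 and 9.15 in Ent-Pro (4.61-fold). These 3 enzymes differed by 2 log2 units or more. Among abundant chaperones Hspa5, which is BiP, differed by 0.38 and Hsp90b1 by 0.20, neither called, although Hspa5 was called in DBZ Sec-Pro alone (0.61, adjusted p = 0.028), and calreticulin, described below, was called. The count of 19 was 6, 10 and 12 without Ent-Pro replicate 1, Ent-Pro replicate 2 and DBZ Sec-Pro replicate 2.

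Promoters of these genes were read for the ER stress element, the sequence CCAAT, 9 bases of any kind and CCACG, through which ATF6 and XBP1 act; both strands were searched from 250 bases before to 50 after the start. Promoters came from RefSeq (build GRCm38.p6). The element stood in 8 of 25 folding genes with a promoter (32%), against 18 of 9887 measured genes (0.182%). In the ER stress list described below it stood in 2 of 21 genes (9.52%), Syvn1 and Derl3, neither of them called. In the translocation and COPI lists it stood in 0 of 14 and 0 of 24 genes. The sites are shown because genes that share the element differed in their change; capitals mark its fixed ends, and sites are read 5′ to 3′ on the strand named.
Ero1b, chr13:12565682-12565700, minus strand: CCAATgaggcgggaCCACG
Pdia6, chr12:17266491-17266509, plus strand: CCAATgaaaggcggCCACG
Dnajc3, chr14:118937827-118937845, plus strand: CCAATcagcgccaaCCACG
Creld2, chr15:88819520-88819538, minus strand: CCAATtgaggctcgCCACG
Calr, chr8:84847075-84847093, plus strand: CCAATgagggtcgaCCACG
Hspa5, chr2:34772025-34772043, plus strand: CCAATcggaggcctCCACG
Canx, chr11:50325800-50325818, minus strand: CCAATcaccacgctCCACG
Of the 8 genes, 5 were called higher: the oxidase Ero1b by 1.46, the disulfide isomerase Pdia6 by 1.09, the co-chaperone Dnajc3 by 0.89, Creld2 by 0.83 and calreticulin, Calr, by 0.49. The other 3 were Hspa5, Hsp90b1, which holds 2 sites, and calnexin, Canx (-0.08). In the whole folding list 19 of 28 were higher, so genes with the element were not called more often than the list. Ero1b read 9.26 and 9.59 in DBZ Sec-Pro and 8.46 and 9.31 in Rbpj Sec-Pro, against 7.68 and 7.70 in Ent-Pro, although its dimmest probe set gave -0.22. Pdia6 read 12.66 and 13.07 in DBZ Sec-Pro and 11.65 and 11.71 in Rbpj Sec-Pro, against 11.18 and 11.18 in Ent-Pro. Canx read between 12.67 and 12.91 on all 6 arrays. Among the 365 agreeing genes higher outside the markers that had a promoter, 3 held the element (0.822%), the third being Spats2l (3.02). A match is a description and not a measured site of binding.

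Of 24 genes that sense ER load or clear misfolded proteins 12 were higher, 0 were lower and 12 were not called, with a median of 0.44. Members called higher in both Sec-Pro groups numbered 6. Bhlha15 was placed in this list. The mannosidase-like proteins Edem1 and Edem2, which pick glycoproteins for degradation, differed by 1.62 and 1.54. Edem1 read 10.58 and 11.12 in DBZ Sec-Pro and 10.49 and 10.17 in Rbpj Sec-Pro, against 8.92 and 9.02 in Ent-Pro. Atf6, a sensor and transcription factor of the stress response, differed by 1.14, at 9.01 and 9.25 in DBZ Sec-Pro and 8.63 and 8.92 in Rbpj Sec-Pro, against 7.79 and 7.84 in Ent-Pro. The count of 12 was 5 or 8 with Ent-Pro replicate 1 or 2 left out. Xbp1, the factor downstream of the sensor Ern1, differed by 0.27 and Ern1 by -0.42, neither called; both were picked out after their values were seen.

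Traffic between ER and Golgi was read from 2 lists. Of 32 genes of COPII coats and ER exit 11 were higher, 1 was lower (Sec24b, -0.35) and 20 were not called, with a median of 0.31. Members called higher in both Sec-Pro groups numbered 4, and over all genes that share was 4.29%. The cargo receptor Mia3 of bulky proteins differed by 0.96, the coat subunit Sec24d by 0.90, Mcfd2, a partner of the cargo lectin Lman1, by 0.62 and the SNARE Sec22b by 0.60. Of 27 genes of COPI coats, KDEL retrieval and p24 proteins 15 were higher and 0 lower, 10 of them in each Sec-Pro group, with a median of 0.48. Kdelr3, a receptor that returns escaped ER proteins, read 8.35 and 9.10 in DBZ Sec-Pro and 9.11 and 8.53 in Rbpj Sec-Pro, against 5.49 and 4.98 in Ent-Pro, a 11.6-fold difference (adjusted p = 6.2e-05). Of the other KDEL receptors Kdelr2 differed by 0.62 and was called, while Kdelr1 differed by 0.20 and was not. Tmed6, a p24 protein, differed by 1.70, Arfgap3, which uncoats COPI vesicles, by 1.14 and the small GTPase Arf4 by 0.67, though on their dimmest probe sets Arf4 (0.081) and Sec22b (0.51) were not called. The 11 higher COPII genes were 1, 3 and 6 without Ent-Pro replicate 1, Ent-Pro replicate 2 and DBZ Sec-Pro replicate 2, and the 15 COPI genes were 6 and 8 without either Ent-Pro array.

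Of 50 genes for O-glycans, sialic acid and sulfate, 18 were higher and 3 lower, with a median of 0.35. The 3 lower ones, Chst7, Chst11 and Chst3, all encode sulfotransferases that act on chondroitin. Chst4, a sulfotransferase that acts on mucin-type glycans, read 8.14 and 7.84 in DBZ Sec-Pro and 8.21 and 7.16 in Rbpj Sec-Pro, against 5.78 and 5.86 in Ent-Pro (difference 2.02, adjusted p = 0.0013). C1galt1c1, the chaperone of the enzyme that makes the core 1 glycan, read 12.49 and 12.71 in DBZ Sec-Pro and 11.92 and 11.96 in Rbpj Sec-Pro, against 10.70 and 10.55 in Ent-Pro (difference 1.65). A dimmer probe set of the same gene gave -0.11. B3gnt5, of lacto-series glycolipids, differed by 1.96 (0.064 and not called on its dimmest probe set), and St3gal1, a sialyltransferase near the absent control in Ent-Pro, was at least 1.96-fold higher. Among the polypeptide transferases that start mucin O-glycans, Galnt7 differed by 1.33 and Galnt3 by 1.28, picked out after their values were seen. The 18 higher genes numbered 10 and 11 without Ent-Pro replicate 1 or 2, and the 3 lower ones 0 and 1, with 1 lower without either DBZ Sec-Pro array.

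Granule genes were raised in part. Of 38 genes for docking and release 14 were higher and 0 lower, 10 of them in each Sec-Pro group, with a median of 0.33, so most members did not pass. The GTPases of secretory granules stood out among those that did. Rab15 read 11.44 and 11.54 in DBZ Sec-Pro and 10.90 and 10.88 in Rbpj Sec-Pro, against 8.44 and 8.64 in Ent-Pro, a 6.27-fold difference (adjusted p = 1.8e-05). Rab27b read 10.46 and 10.57 in DBZ Sec-Pro and 9.35 and 9.51 in Rbpj Sec-Pro, against 7.67 and 7.42 in Ent-Pro (difference 2.43). Rab3d, of exocrine granules, read 10.80 and 11.35 in DBZ Sec-Pro and 9.81 and 10.23 in Rbpj Sec-Pro, against 7.91 and 8.51 in Ent-Pro (difference 2.34), although its dimmest probe set gave -0.08. In all 3 the drug arrays were the highest. Anxa3, an annexin of granule membranes, read 7.98 and 7.55 in DBZ Sec-Pro and 9.72 and 7.09 in Rbpj Sec-Pro, against 5.26 and 5.32 in Ent-Pro, and lost its call without either Ent-Pro array. Cadps (2.03 as measured) and Snap25 (1.90), which prime and fuse dense-core granules of endocrine cells, were near the absent control in Ent-Pro and were picked out after their values were seen. Leaving out Ent-Pro replicate 1 or 2 left 9 and 8 of the 14. With the 4 Sec-Pro arrays fitted as 1 group, the higher genes numbered 1 in the translocation list, 3 in the N-glycan list, 10 in folding, 6 in ER stress, 4 in COPII, 11 in COPI, 13 in the O-glycan list, where 0 were lower, and 11 in the granule list. At an unadjusted p of 0.05 in limma, 0 genes were lower in the folding, COPI and granule lists and 2 in the ER stress list.

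**Figure D2:**
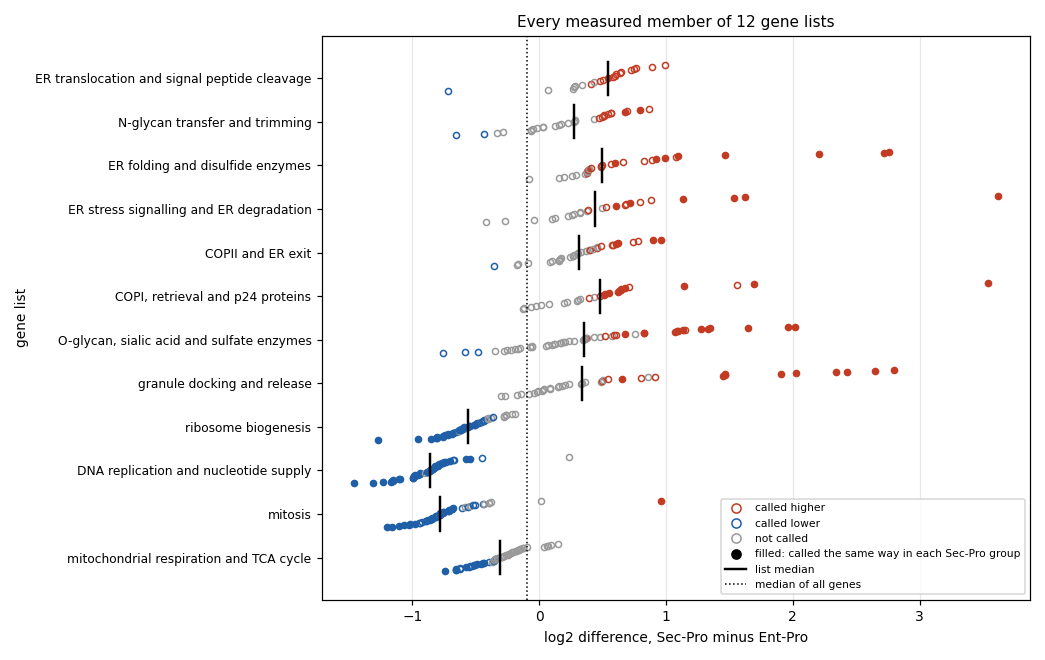
Log2 difference, Sec-Pro minus Ent-Pro (horizontal axis), of every measured member of 12 gene lists, 1 point per gene; red and blue mark genes called higher and lower, and filled points those called the same way in each Sec-Pro group. The medians (vertical bars) of the 8 secretory route lists lie between 0.27 and 0.54, and those of ribosome biogenesis, replication, mitosis and mitochondrial lists between -0.86 and -0.31; the dotted line is the median of all genes, -0.09.

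Transcription factors split in 2 directions. Of 56 gut factors 11 were higher (19.6%), 8 of them in each Sec-Pro group, and 17 lower (30.4%), 9 of them in each. Over all genes 9.27% were higher and 14.7% lower. On the higher side, next to Gfi1 and Spib, stood all 3 Foxa pioneer factors, which open chromatin in gut endoderm. Foxa3 read 11.11 and 11.86 in DBZ Sec-Pro and 9.77 and 10.16 in Rbpj Sec-Pro, against 8.85 and 8.59 in Ent-Pro (difference 2.01, adjusted p = 0.0005). Foxa2 differed by 1.601 and Foxa1 by 1.36. Klf4, a factor of goblet cell maturation and growth arrest, read 11.95 and 12.08 in DBZ Sec-Pro and 11.96 and 11.77 in Rbpj Sec-Pro, against 10.14 and 10.27 in Ent-Pro (difference 1.73, adjusted p = 1.9e-05). The lower side held nuclear receptors and factors of intestinal identity, grouped here after their values were seen. After Nr5a2 came Ppara, the fatty acid receptor (-1.71), the glucocorticoid receptor Nr3c1 (-1.42), the vitamin D receptor Vdr (-1.11), the bile acid receptor Nr1h4 (-0.73), the xenobiotic receptor Nr1i2 (-0.48) and their partner Rxra (-0.47). Of the identity factors Klf5 differed by -0.80, Cdx1 by -0.77, Gata4 by -0.63, Cdx2 by -0.57 and Hnf4a by -0.49. Hnf4a was abundant everywhere, at 12.43 and 12.42 in DBZ Sec-Pro and 12.69 and 12.76 in Rbpj Sec-Pro, against 12.99 and 13.15 in Ent-Pro. List members other than Gfi1, Spib, Foxa3 and Nr5a2 were picked out after their values were seen. The lower genes numbered 9 and 6 without Ent-Pro replicate 1 or 2, and the higher ones 6 without Ent-Pro replicate 2 and 17 without Rbpj Sec-Pro replicate 1.

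Of 34 Notch ligands, receptors and targets 3 were higher, all Delta-like ligands, 5 were lower and 26 were not called, shares like those over all genes, so the list as a whole did not stand out. Dll1, the ligand shown by secretory progenitors, read 11.46 and 11.43 in DBZ Sec-Pro and 10.04 and 11.26 in Rbpj Sec-Pro, against 8.65 and 8.48 in Ent-Pro, a 5.59-fold difference (adjusted p = 0.00056). Dll4 read 8.56 and 8.86 in DBZ Sec-Pro and 8.01 and 8.07 in Rbpj Sec-Pro, against 6.57 and 6.30 in Ent-Pro, a 3.84-fold difference. Dll3, near the absent control in Ent-Pro, was called in the pooled comparison (1.504 as measured) and in DBZ Sec-Pro, not in Rbpj Sec-Pro. Among the receptors, Notch2 read 5.66 and 6.05 in DBZ Sec-Pro and 5.84 and 6.21 in Rbpj Sec-Pro, against 8.03 and 8.15 in Ent-Pro, 4.43-fold lower (adjusted p = 0.00016). A dimmer Notch2 probe set differed by -0.06 and was not called. Notch1 read 8.55 and 8.36 in DBZ Sec-Pro and 8.17 and 9.01 in Rbpj Sec-Pro, against 10.26 and 10.22 in Ent-Pro (difference -1.72). The ligand Jag1 went with the receptors (-0.84). Neither Dll1 nor the receptors differed between drug and deletion at the threshold, and for Notch2 the difference was -0.17 (SE 0.22).

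Signals to and from neighbouring cells changed in single genes rather than as groups. Kit, a receptor tyrosine kinase found on deep crypt secretory cells of the colon, read 11.03 and 11.63 in DBZ Sec-Pro and 8.66 and 9.78 in Rbpj Sec-Pro, against 7.05 and 6.51 in Ent-Pro, an 11.3-fold difference (adjusted p = 0.00024). Its ligand Kitl, stem cell factor, went the other way, at 9.43 and 9.21 in DBZ Sec-Pro and 9.03 and 9.78 in Rbpj Sec-Pro, against 10.94 and 10.79 in Ent-Pro (difference -1.50, adjusted p = 0.0034, but -0.71 and not called on its dimmest probe set). Receptor and ligand were thus highest in opposite groups. They belong to a list of 51 cytokines, chemokines and receptors with 7 higher (13.7%) and 5 lower (9.8%), against 9.27% and 14.7% over all genes. Il13ra1, a receptor subunit for interleukin 13, differed by 1.30, and Tnfrsf21, a death receptor, by 1.79 (0.40 and not called on its dimmest probe set). Of 31 EGF family and Eph genes 2 were higher (6.45%) and 4 lower (12.9%), below both shares over all genes. Egf itself differed by 0.94, at 6.76 and 6.15 in DBZ Sec-Pro and 4.44 and 4.96 in Rbpj Sec-Pro, against 4.54 and 4.73 in Ent-Pro, so only the drug arrays were high. Ephb3, the receptor that holds Paneth cells at the crypt base, showed the same order, 9.84 and 10.46 in DBZ Sec-Pro and 8.66 and 8.76 in Rbpj Sec-Pro, against 8.51 and 8.39 in Ent-Pro. Erbb2, a partner of the EGF receptor, was lower in each group (-0.84), and Ephb4 in the pooled comparison (-0.78). These small counts moved with single arrays: the 7 and 5 of the cytokine list were 3 and 2 without Ent-Pro replicate 1, 4 and 1 with Ent-Pro replicate 2 left out, 13 higher without Rbpj Sec-Pro replicate 2, 4 higher without DBZ Sec-Pro replicate 1 and 8 lower without Rbpj Sec-Pro replicate 1. The 2 and 4 of the EGF and Eph list became 6 and 7 without Rbpj Sec-Pro replicate 2, and 1 was lower without either Ent-Pro array.

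**Figure D3:**
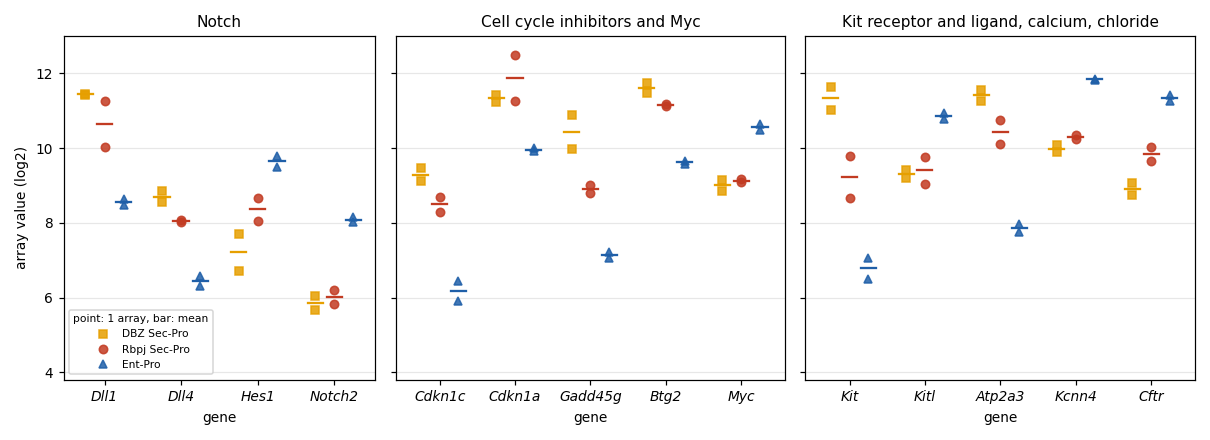
Array values (log2, vertical axis) of 14 genes in DBZ Sec-Pro (squares), Rbpj Sec-Pro (circles) and Ent-Pro (triangles), 1 point per array and 1 bar per group mean. Delta ligands, cell cycle inhibitors, Kit and Atp2a3 lie higher in all 4 Sec-Pro arrays, and Hes1, Notch2, Myc, Kitl, Kcnn4 and Cftr lie lower.

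Genes of stem cells and Wnt targets leaned lower: 15 of 42 were lower (35.7%) and 7 higher (16.7%), with a median of -0.21. Over all genes 14.7% were lower and 9.27% higher. Aqp4, a water channel of crypt base cells, read 7.93 and 7.40 in DBZ Sec-Pro and 7.30 and 9.68 in Rbpj Sec-Pro, against 10.56 and 10.44 in Ent-Pro. Igfbp4, a secreted binding protein of insulin-like growth factors, differed by -1.84 (-0.47 and not called on its dimmest probe set). Lgr5, the stem cell receptor, read 8.80 and 8.37 in DBZ Sec-Pro and 6.31 and 8.61 in Rbpj Sec-Pro, against 7.91 and 7.55 in Ent-Pro, and was not called (difference 0.29, SE 0.52). On the higher side stood Apcdd1, a Wnt antagonist and target (1.93, but 0.18 and not called on a dimmer probe set), and Tnfrsf19, or Troy, a marker of stem cells (1.62, but -0.27 on a dimmer probe set). Hopx, a marker of quiescent crypt cells, differed by 0.81. Lgr5 and Hopx were picked out after their values were seen. The 15 lower genes numbered 3 and 5 without Ent-Pro replicate 1 or 2, and the 7 higher ones 3 without Ent-Pro replicate 2.

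Replication genes were nearly all lower. Of 45 genes for DNA replication and nucleotide supply 43 were lower in Sec-Pro and 0 higher, 35 of them in each Sec-Pro group, with a median of -0.86. The 2 not called were Rfc1 (0.24) and Pola1 (-0.90). Tk1, the S-phase thymidine kinase, read 8.65 and 8.50 in DBZ Sec-Pro and 8.27 and 9.24 in Rbpj Sec-Pro, against 10.34 and 9.90 in Ent-Pro (difference -1.46, adjusted p = 0.0046). Uhrf1, which guides DNA methylation to new strands, read 9.24 and 9.69 in DBZ Sec-Pro and 9.08 and 9.77 in Rbpj Sec-Pro, against 10.71 and 10.80 in Ent-Pro (difference -1.31). Its partner methyltransferase Dnmt1 read 9.94 and 10.02 in DBZ Sec-Pro and 9.67 and 10.20 in Rbpj Sec-Pro, against 11.19 and 11.05 in Ent-Pro (difference -1.16, adjusted p = 0.0013). Pole, the leading strand polymerase, differed by -1.23. None of these 4 genes differed between drug and deletion at the threshold. The count of 43 was 16 with Ent-Pro replicate 1 left out and 24 with replicate 2 left out; among the named genes Tk1 (-1.24) and Pole (-0.90) lost the call in the first case and Uhrf1 (-1.26) in the second.

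Promoters of the replication genes were read for the E2F site, TTT followed by 2 bases that are each C or G and then CGC. It stood in 14 of 38 replication genes with a promoter (36.8%), against 402 of 9887 measured genes (4.07%), and in 50 of 562 agreeing lower genes (8.9%) and 5 of 365 agreeing higher genes (1.37%). Of the 14 genes 13 were called lower, 11 of them in each Sec-Pro group. In the whole replication list 43 of 45 were lower, so genes with the site were not called more often than the list. The promoters of Uhrf1 and Dnmt1 are shown as the 2 leading genes with a site, each read 5′ to 3′ along the gene, with the sites in capitals; a site on the other strand appears as its complement.
Uhrf1, chr17:56304063-56304362, plus strand: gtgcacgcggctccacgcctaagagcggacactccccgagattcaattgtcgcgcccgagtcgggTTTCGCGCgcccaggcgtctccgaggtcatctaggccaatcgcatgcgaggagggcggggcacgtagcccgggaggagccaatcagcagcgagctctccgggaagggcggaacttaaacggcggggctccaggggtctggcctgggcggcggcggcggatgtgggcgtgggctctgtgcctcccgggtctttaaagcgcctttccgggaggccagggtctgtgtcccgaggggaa
Dnmt1, chr9:20952574-20952873, minus strand: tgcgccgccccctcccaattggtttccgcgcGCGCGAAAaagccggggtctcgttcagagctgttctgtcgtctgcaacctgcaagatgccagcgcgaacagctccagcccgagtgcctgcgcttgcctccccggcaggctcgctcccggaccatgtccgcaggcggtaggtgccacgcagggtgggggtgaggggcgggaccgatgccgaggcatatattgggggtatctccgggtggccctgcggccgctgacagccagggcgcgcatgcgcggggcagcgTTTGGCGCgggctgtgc
The Uhrf1 site lies 185 bases before the start. Of the 2 Dnmt1 sites, 1 lies 219 bases before the start on the other strand and 1 lies 34 bases after it. The E-box CAGCTG, a form that Atoh1 and other basic helix-loop-helix factors can bind, stood in 86 of the 365 agreeing higher genes (23.6%), 76 of the 562 agreeing lower genes (13.5%) and 1824 of all 9887 (18.4%). In the granule list it stood in 10 of 30 genes (33.3%), but in the other secretory route lists searched its share was below that of all genes. It stood in 4 of 25 folding genes (16%), 1 of 14 translocation genes (7.14%), 1 of 21 ER stress genes (4.76%) and 1 of 24 COPI genes (4.17%).

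Mitosis genes followed replication with smaller agreement. Of 47 genes 38 were lower and 1 higher, 19 of the lower ones in each Sec-Pro group, with a median of -0.78. The condensin subunit Ncapg differed by -1.20, the centriole kinase Plk4 by -1.16, Racgap1 of the cleavage furrow by -1.10 and the kinetochore motor Cenpe by -1.07. Ncapg (-0.79) and Plk4 (-0.68) were not called on their dimmest probe sets. The single higher gene was Cdc25b, a phosphatase that starts mitosis, at 8.58 and 9.16 in DBZ Sec-Pro and 8.39 and 8.86 in Rbpj Sec-Pro, against 7.81 and 7.77 in Ent-Pro; it was picked out after its value was seen. The lower genes numbered 4, 10 and 23 without Ent-Pro replicate 1, Ent-Pro replicate 2 and DBZ Sec-Pro replicate 1.

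In a list of 37 genes of G1 cyclins, inhibitors and E2F factors, 8 were higher (21.6%), 10 lower (27%) and 19 not called, with a median of -0.12. Over all genes 9.27% were higher and 14.7% lower. The 8 higher ones, grouped after their values were seen, were inhibitors or growth arrest genes, with Ccng2 among them. Cdkn1c, the inhibitor p57, read 9.11 and 9.46 in DBZ Sec-Pro and 8.69 and 8.30 in Rbpj Sec-Pro, against 6.45 and 5.91 in Ent-Pro, a 6.54-fold difference (adjusted p = 0.00014). Cdkn1a, the inhibitor p21, read 11.24 and 11.43 in DBZ Sec-Pro and 12.50 and 11.26 in Rbpj Sec-Pro, against 10.01 and 9.92 in Ent-Pro (difference 1.64). Gadd45g, a growth arrest and stress gene, differed by 2.53, and Btg2, an antiproliferative gene, by 1.77. Gadd45a (1.63) and the Myc antagonist Mxd4 (1.64), picked out after their values were seen, moved with them. On the lower side Myc read 9.15 and 8.86 in DBZ Sec-Pro and 9.16 and 9.09 in Rbpj Sec-Pro, against 10.50 and 10.65 in Ent-Pro, 2.84-fold lower (adjusted p = 0.00016). E2f8 (-1.37) and cyclin E1, Ccne1 (-0.86), were lower in each group. The 10 lower genes numbered 5 and 4 without Ent-Pro replicate 1 or 2.

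Most genes that build ribosomes were lower. Of 47 genes of ribosome biogenesis 36 were lower and 0 higher, 25 of them in each Sec-Pro group, with a median of -0.56, and 0 of the 47 had a positive difference. Rrp1b, a nucleolar processing factor, read 8.17 and 8.002 in DBZ Sec-Pro and 8.28 and 8.32 in Rbpj Sec-Pro, against 9.32 and 9.61 in Ent-Pro (difference -1.27, adjusted p = 0.002). Utp20 of the small subunit processome differed by -0.96, the RNA polymerase I subunit Polr1b by -0.85 and the RNA methyltransferase Nop2 by -0.81. Between DBZ and Rbpj Sec-Pro 0 of the 47 differed in limma, the lowest adjusted p being 0.0688. Of 50 genes of mitochondrial respiration and the citric acid cycle 19 were lower and 0 higher, with a smaller median of -0.31. Members called lower in both Sec-Pro groups numbered 7. Fumarase, Fh1, differed by -0.74, the isocitrate dehydrogenase subunits Idh3b by -0.66 and Idh3g by -0.50, and the complex I subunit Ndufa10 by -0.58. With Ent-Pro replicate 1 or 2 left out the ribosome count was 12 and 10 and the mitochondrial count 0 and 0. At an unadjusted p of 0.05 in limma, 0 genes were higher in the replication, ribosome and mitochondrial lists.

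**Figure D4:**
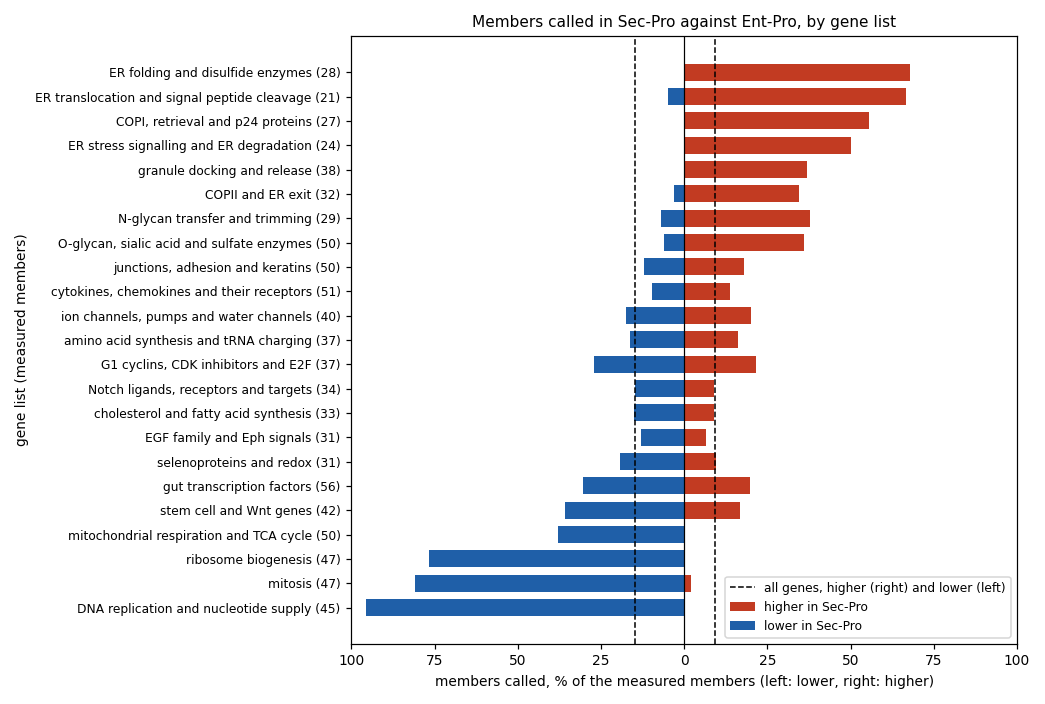
Share of the measured members of 23 gene lists called higher (right, red) or lower (left, blue) in Sec-Pro against Ent-Pro, in percent; numbers in brackets are measured members and dashed lines are the shares over all genes, 9.27% higher and 14.7% lower. The ER and Golgi lists lie on the right and DNA replication, mitosis and ribosome biogenesis on the left, with 43 of 45, 38 of 47 and 36 of 47 members lower.

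Amino acid genes moved in both directions, 6 of 37 higher (16.2%) and 6 lower (16.2%), against 9.27% and 14.7% over all genes. The higher ones included Gpt2, the mitochondrial alanine aminotransferase, at 8.09 and 8.66 in DBZ Sec-Pro and 5.82 and 7.47 in Rbpj Sec-Pro, against 4.56 and 4.68 in Ent-Pro (difference 2.89), the neutral amino acid carrier Slc1a4 (1.93) and the tryptophan tRNA synthetase Wars (1.53). The lower ones included the folate-dependent serine enzyme Shmt1, at 8.43 and 8.01 in DBZ Sec-Pro and 8.81 and 9.12 in Rbpj Sec-Pro, against 10.31 and 10.32 in Ent-Pro (difference -1.72, adjusted p = 0.0001). The mitochondrial form Shmt2 (-0.74), Phgdh, which begins serine synthesis (-0.86), and Cth of cysteine synthesis (-1.33) were lower in each Sec-Pro group too, and were picked out after their values were seen. The lower genes numbered 3 without Ent-Pro replicate 1. Of 33 genes of cholesterol and fatty acid synthesis 3 were higher and 5 lower, near the background: Me1, which supplies NADPH, differed by 1.97, the desaturase Fads2 by -1.32, Acss2 by -1.18 and the regulator Srebf1 by -0.56. The 5 lower genes numbered 0 and 1 with Ent-Pro replicate 1 or 2 left out, and the 3 higher ones 1 without either Ent-Pro array or DBZ Sec-Pro replicate 2. Acss2 was called in only 6 of 19 alternative settings. It was not called on its dimmest probe set (-0.84), with only the 6 arrays compared or with the 4 Sec-Pro arrays as 1 group.

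Selenom was an exception in its list. Of 31 selenoprotein and redox genes 3 were higher and 6 lower, near the background. After Selenom came Selenok, of ER membranes, at 10.58 and 10.69 in DBZ Sec-Pro and 10.57 and 10.39 in Rbpj Sec-Pro, against 9.54 and 9.63 in Ent-Pro (difference 0.97), and the methionine sulfoxide reductase Msrb1 (0.85). The mitochondrial peroxiredoxin Prdx3 was lower (-0.54). Leaving out Ent-Pro replicate 1 or 2 left 2 and 2 of the 6 lower genes, and without Rbpj Sec-Pro replicate 2 the 3 higher ones numbered 5.

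Of 40 genes of ion and water transport 8 were higher (20%) and 7 lower (17.5%), against 9.27% and 14.7% over all genes. Channels of chloride secretion were among the lower ones. Cftr, the apical chloride channel, read 9.07 and 8.75 in DBZ Sec-Pro and 9.65 and 10.04 in Rbpj Sec-Pro, against 11.26 and 11.42 in Ent-Pro, 3.9-fold lower (adjusted p = 0.0003). Kcnn4, a basolateral potassium channel that drives chloride out, read 10.09 and 9.89 in DBZ Sec-Pro and 10.23 and 10.35 in Rbpj Sec-Pro, against 11.86 and 11.82 in Ent-Pro, 3.25-fold lower (adjusted p = 0.00014). The second basolateral potassium channel, formed by Kcnq1 (-1.28) and Kcne3 (-1.16), and the chloride loader Slc12a2 (-0.67) were lower as well, Kcne3 in each group; they were picked out after their values were seen. Cftr was not called on its dimmest probe set (-0.39). The largest increase was Atp2a3, the calcium pump SERCA3 of the ER, at 11.27 and 11.56 in DBZ Sec-Pro and 10.11 and 10.77 in Rbpj Sec-Pro, against 7.75 and 7.98 in Ent-Pro, an 8.35-fold difference (adjusted p = 5e-05). The higher genes numbered 2 and 3 and the lower ones 3 and 3 without Ent-Pro replicate 1 or 2.

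Of 50 genes for junctions, adhesion and keratins 9 were higher (18%) and 6 lower (12%), against 9.27% and 14.7% over all genes. Krt23, a type I keratin, read 10.02 and 9.44 in DBZ Sec-Pro and 9.26 and 8.63 in Rbpj Sec-Pro, against 6.91 and 6.49 in Ent-Pro (difference 2.64, adjusted p = 0.00012). Krt7, a keratin of ducts and goblet cells, read 12.37 and 12.27 in DBZ Sec-Pro and 11.43 and 11.26 in Rbpj Sec-Pro, against 10.39 and 10.32 in Ent-Pro (difference 1.47). The tight junction claudin Cldn4 differed by 1.68 and lost its call without either Ent-Pro array. Krt19, a keratin of the crypt, went the other way (-0.87), as did Mpzl2; Krt19 was picked out after its value was seen. Leaving out Ent-Pro replicate 1 or 2 gave 5 and 4 higher and 2 and 2 lower genes, and leaving out DBZ Sec-Pro replicate 1 or 2 gave 3 and 3 lower genes.

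Genes of other cells were counted because whole crypts carry them. Of 40 leukocyte genes 9 were higher in Sec-Pro (22.5%) and 2 lower (5%), against 9.27% and 14.7% over all genes. The list median was 0.64. The list averaged 6.65 and 7.13 in DBZ Sec-Pro and 7.48 and 6.27 in Rbpj Sec-Pro, against 6.16 and 6.03 in Ent-Pro, so every Sec-Pro array was above both Ent-Pro arrays; 0 of the 40 genes were near the absent control on all 4 Sec-Pro arrays and 2 on both Ent-Pro arrays. Ptprc, the pan-leukocyte antigen CD45, read 8.74 and 9.503 in DBZ Sec-Pro and 9.83 and 7.74 in Rbpj Sec-Pro, against 6.18 and 6.06 in Ent-Pro (difference 2.83). The T cell receptor chain Cd3g (2.40), the NK receptor Klrd1 (2.33) and the chemokine Ccl5 (2.22) followed. Without Rbpj Sec-Pro replicate 2 the higher genes numbered 21, without DBZ Sec-Pro replicate 2 they numbered 3, without either Ent-Pro array 1, without either ISC array 4 and without either ENT array 3. Glipr1, Anxa3 and Vim, which leukocytes also carry, were like the list highest in Rbpj Sec-Pro replicate 1; the part of leukocytes in those differences was not tested.

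Of 30 stromal and vascular genes 2 were higher (6.67%) and 5 lower (16.7%), against 9.27% and 14.7% over all genes. The list averaged 5.35 and 5.65 in DBZ Sec-Pro and 5.48 and 5.35 in Rbpj Sec-Pro, against 5.43 and 5.34 in Ent-Pro. Vim, an intermediate filament of mesenchyme and leukocytes, read 8.53 and 8.73 in DBZ Sec-Pro and 10.42 and 7.94 in Rbpj Sec-Pro, against 5.70 and 5.26 in Ent-Pro (difference 3.43), whereas smooth muscle actin, Acta2 (-0.77), biglycan, Bgn (-0.59), and the collagen Col6a1 (-0.76) were lower; Acta2 (-0.10) and Bgn (-0.40) were not called on their dimmest probe sets. The lower genes numbered 0 and 2 without Ent-Pro replicate 1 or 2, and the higher ones 6 without DBZ Sec-Pro replicate 1. Of 15 pancreatic acinar genes 3 were higher (20%) and 2 lower (13.3%). The higher ones were Rnase1, also counted as a goblet gene (6.80), colipase, Clps, also counted as a Paneth gene (3.38), and Pnliprp1 (2.59). The lower ones were the elastase Cela1 (-1.44) and Ctrl (-0.58). The 3 higher genes numbered 1 without either DBZ Sec-Pro array or Ent-Pro replicate 2: Clps and Pnliprp1 were not called without any one of the DBZ Sec-Pro and Ent-Pro arrays, nor Pnliprp1 without any one of the ISC and ENT arrays or with the 4 Sec-Pro arrays as 1 group. Immediate-early genes, which tissue handling can induce, gave 4 of 30 higher (13.3%), among them Dusp1 (1.65) and Egr1 (1.23), and 3 lower (10%), Myc among them. That list averaged 8.24 and 8.09 in DBZ Sec-Pro and 8.44 and 8.21 in Rbpj Sec-Pro, against 7.89 and 8.38 in Ent-Pro, so the groups overlapped. Without Rbpj Sec-Pro replicate 2 its higher genes numbered 7. In the enterocyte list Tmprss15, the enteropeptidase, and Slc46a1, the folate carrier, were high only in Rbpj Sec-Pro: Tmprss15 read 5.05 and 4.96 in DBZ Sec-Pro and 7.94 and 7.87 in Rbpj Sec-Pro, against 5.18 and 4.70 in Ent-Pro. Mep1a differed by 1.35 and Espn by 0.66, and without Ent-Pro replicate 2 the 7 higher genes numbered 0.

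Between DBZ and Rbpj Sec-Pro 2036 genes (16.4%) differed, a comparison that uses no Ent-Pro array. Of the 457 agreeing higher genes outside the markers 140 also differed between the drug and the deletion, and of the 679 agreeing lower genes 41 did. Among ER folding genes 13 of 28 differed, with list medians of 0.83 for DBZ and 0.30 for Rbpj Sec-Pro, each minus Ent-Pro. The difference count was 363 without DBZ Sec-Pro replicate 2, 1273 without DBZ Sec-Pro replicate 1 and 1018 without Rbpj Sec-Pro replicate 1. The part of the bioB gap and of the leukocyte genes of Rbpj Sec-Pro replicate 1 in this count was not tested beyond that.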

How the data were processed

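Values were the log2 probe set values the authors deposited for the 10 arrays. The submitters' processing notes name RMA and MAS5; the role and version of each are not given in the sources used here. No further scaling was applied. Probe sets of 1 gene symbol were kept (20393 of 22690, with 691 of several symbols, 1606 unnamed and the 64 controls left out), and for each gene the 1 with the highest mean over the 10 arrays, which gave 12393 genes with no filter on dim ones.

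limma 3.58.1 in R 4.3.3 (lmFit and eBayes, 5 group means, 5 residual and 3.75 prior degrees of freedom) tested the contrasts, with Benjamini-Hochberg adjustment. The number of arrays limits the precision. Genes are named by rule: the 15 largest agreeing changes per direction outside the markers, up to 4 called members of each of 28 further lists, 2 of each marker list, and the targeted genes with Hes1; any other gene in the text was chosen after its values were seen. The members and the 32 lists (1126 of 1276 genes measured) were chosen with earlier results of these data known. Fold changes against a group near the absent control, TrpnX, are bounds, with that group set to the control plus 1. Alternatives were other scalings, probe sets, fits and left-out arrays.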

Additional observations from a re-analysis of the deposited data

Results flagged for a closer look

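Of the 142 genes named by rule, 50 differed between DBZ Sec-Pro and Rbpj Sec-Pro by limma. The threshold was an adjusted p of 0.05 or less for the difference itself. Over all genes 16.4% differed. Most named genes were chosen for large changes on these same arrays, so their share cannot be compared with that of all genes. Values are log2 differences, DBZ minus Rbpj, and each rests on 2 arrays a group.

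Either way, 13 of 28 ER folding, 6 of 24 ER stress, 10 of 32 COPII and 4 of 27 COPI genes differed. The named ER and Golgi genes that did so were higher with the drug. Bhlha15 differed by 2.60, Selenom by 1.57, Reep5 by 1.52, Tmed6 by 1.46, Fkbp11 by 1.43, Tent5c by 1.26, Pdia5 by 1.17, Edem2 by 1.09, Atp2a3 by 0.98, Sec11c by 0.89, Tram1 by 0.77 and Krtcap2 by 0.64. Among glycan and granule genes B3gnt5 differed by 1.55, Rab27b by 1.08, Rab3d by 1.05 and C1galt1c1 by 0.66. The lineage factors Neurog3 (1.77), Foxa3 (1.52), Gfi1 (1.48) and Atoh1 (1.23) were also higher with the drug, and so were the ligand Dll4 (0.66), Gadd45g (1.52), Kit (2.11), Egf (1.75), Ephb3 (1.44) and Apcdd1 (0.75). Kit read 11.03 and 11.63 in DBZ Sec-Pro, against 8.66 and 9.78 in Rbpj Sec-Pro. The rest of this side were Epb42 (2.53), Rnase1 (2.17), Hpd (2.15), Acta1 (2.05), Gpt2 (1.73), Wars (1.12), Serpina1b (1.05), Krt7 (0.97), Col6a1 (0.91), Lrrc26 (0.90) and Hepacam2 (0.78). Rbpj (1.61) was deleted in only 1 of the 2 groups, so the design set its difference.

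Fewer genes were lower with the drug. Dmbt1 differed by -2.91, at 8.37 and 8.18 in DBZ Sec-Pro, against 10.12 and 12.25 in Rbpj Sec-Pro. The enterocyte genes Tmprss15 and Slc46a1 differed by -2.90 and -2.70. Fgfbp1 differed by -1.61, Mpzl2 by -1.55, Hes1 by -1.16, Adamts15 by -1.12, Igfbp4 by -0.97, Cftr by -0.93, Zg16 by -0.90, Gp1bb by -0.79 and Shmt1 by -0.74. Some of the genes just listed, such as Dmbt1, Fgfbp1 and Cftr, were lower in both Sec-Pro groups than in Ent-Pro. Their negative difference by itself places the drug arrays farther from Ent-Pro. It does not describe other genes that were lower in both groups.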

How the results depend on the processing

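Each group has 2 arrays; leaving out 1 Ent-Pro array cost most calls against Ent-Pro, and leaving out DBZ Sec-Pro replicate 2 cost most between DBZ and Rbpj Sec-Pro; the lone array is then assumed to vary like the other groups. Over all left-out arrays the genes higher in Sec-Pro numbered 477 to 1531, the lower ones 392 to 2183, those higher in each Sec-Pro group 244 to 621, those lower in each 147 to 859, and those that differed between DBZ and Rbpj Sec-Pro 363 to 2742. With the 4 Sec-Pro arrays as 1 group, 622 were higher and 908 lower; called genes then numbered 9 higher in the tuft list, 3 in the leukocyte list and 3 in the enterocyte list, and 11 lower in the mitochondrial list and 9 in the stem cell list. With only the 6 arrays compared, 422 were lower in each group and 1075 differed between DBZ and Rbpj Sec-Pro. Cyclic loess gave 1206 lower genes, and among genes above the median level 1167 differed between DBZ and Rbpj Sec-Pro. A fit with the replicate block gave 1059 higher and 1558 lower, 506 and 579 in each group, and 1713 between DBZ and Rbpj; replicate numbers did not pair the arrays (r of the within-group differences -0.06, -0.12 and 0.17 over the 3 pairs of groups).

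Of the 142 named genes, all kept their direction and call after median centring and with an intensity trend, and 141 after cyclic loess. Leaving out each array in turn, 88 kept the call throughout, and 32 lost it without either Ent-Pro array. With each gene's dimmest probe set 23 lost the call and 6 changed sign: C1galt1c1 (-0.11), Ero1b (-0.22), Gmppa (-0.13), Rab3d (-0.084), Rbpj (0.054) and Tnfrsf19 (-0.27). The cause was not tested. Lists defined by protein sequence were not run, the proteins being not used here.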

Other observations

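Selenom and Hepacam2 were low in Ent-Pro alone among the 5 groups. Selenom read 5.30 and 5.30 in Ent-Pro, but 9.16 and 8.98 in ISC and 9.06 and 8.61 in ENT, although ENT comes from Atoh1-/- villi. Hepacam2 read 5.84 and 5.24 in Ent-Pro, 8.84 and 8.998 in ISC and 9.06 and 8.76 in ENT. They were not alone in this, as Rgs2, Reep5 and Tuba1a were also lowest in Ent-Pro. Rgs2 read 5.38 and 5.15 in Ent-Pro, 7.42 and 7.72 in ISC and 8.66 and 8.55 in ENT. Reep5 read 6.14 and 6.16 in Ent-Pro, 8.66 and 8.75 in ISC and 9.60 and 9.17 in ENT.

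The genes that follow stand in none of the lists and were picked out after their values were seen. Several products known from liver or neurons were higher in each Sec-Pro group. Nefm, a neurofilament subunit, read 10.05 and 9.60 in DBZ Sec-Pro and 7.23 and 7.49 in Rbpj Sec-Pro, against 5.01 and 4.97 in Ent-Pro (difference 3.60, adjusted p = 3.7e-06). The mannose-binding lectin Mbl2 differed by 3.50, the ribonuclease angiogenin, Ang, by 3.49, the cytochrome Cyp2e1 by 3.46 and alpha-fetoprotein, Afp, by 3.12. The ER calcium-binding protein Rcn1 differed by 3.44 and Elapor1, a membrane protein linked to secretory granules, by 3.55.

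Some genes that glucocorticoids induce in many tissues were lower, alongside the receptor Nr3c1 (-1.42). Fkbp5 read 8.81 and 8.58 in DBZ Sec-Pro and 9.19 and 9.62 in Rbpj Sec-Pro, against 10.98 and 11.09 in Ent-Pro (difference -1.98, adjusted p = 7.3e-05). Cebpd differed by -1.78 and Per1 by -1.12, both lower in each group. Tsc22d3 (0.08), Sgk1 (0.26) and Zbtb16 (-0.41), induced by the same hormones, were not called. Dusp1, Rgs2 and Cdkn1c, named above and also inducible by these hormones, were called higher. The genes of this group were picked by hand, so they do not describe the hormone response as a whole. The iron uptake receptor Tfrc (-1.74), the mitochondrial coactivator Ppargc1b (-1.77) and the progenitor factor Myb (-1.54) were lower in each Sec-Pro group too.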
